A study of Mus musculus with 16 samples.

Results

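Striatal projection neurons are the GABAergic cells that make up most of the striatum and carry its output to the globus pallidus and the substantia nigra. A set of 9 genes known for these cells was followed here in newborn mouse GABAergic cells sorted from different parts of the brain: the transcription factor genes Foxp1, Foxp2, Bcl11b, Isl1 and Ebf1, the signalling genes Pde10a and Ppp1r1b, and the receptor genes Drd2 and Adora2a. All array probes that are not controls and carry one of these names or an older synonym were taken, which gave 14 probes of 41173. An intensity filter left 13 probes, and every gene kept at least 1. Foxp1, Isl1, Ebf1 and Ppp1r1b had a single probe, and Foxp2, Bcl11b, Drd2 and Adora2a had a pair. The second Pde10a probe reached the scanner software's mark for signal well above background with sorted cells on only 1 of 16 arrays, a cerebellum array, and was not tested. For a gene with a pair of probes the brighter one over all arrays leads, and the other is named as such.

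Projection neurons arise in the lateral ganglionic eminence, and their identity is laid down by transcription factors before birth. They later divide into a direct pathway type, which carries dopamine D1 receptors and substance P, and an indirect pathway type, which carries dopamine D2 and adenosine A2a receptors and enkephalin. Isl1 and Ebf1 are known for the direct pathway lineage, Drd2 and Adora2a for the indirect one, and Foxp1, Foxp2, Bcl11b, Pde10a and Ppp1r1b are found in projection neurons of either type or of both.

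The mice carried the GAD67-eGFP transgene on a C57Bl/6 background and were newborn, at postnatal day 1. Cells that carried the fluorescence came from striatum, olfactory bulb, cortex and cerebellum, with 3 arrays each, and from whole brain, with 4 arrays, and each array set the amplified cDNA of 1 sample (Cy5) against that of unsorted total brain from 4 mice of the same age (Cy3). The labels name 6 mice for the dissected regions and 4 for whole brain, call the replicates biological, and do not say which samples share animals. The sort selects cells that made enhanced green fluorescent protein and does not separate projection neurons from interneurons. A log2 ratio is the signal of sorted cells over total brain reference, so a negative value means less signal in the sorted cells. In such bulk samples, fewer cells of a type and less RNA per cell cannot be told apart.

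In the sorted channel, 78.1% to 96.6% of the spots on an array were well above background. Whole-brain arrays were scanned in a batch of their own, so this batch and the whole-brain group cannot be told apart, and the 12 regional arrays shared the other batch. As a check of the labelled regions, the summed sorted-channel signal of 5 olfactory bulb interneuron genes ran from 9806 to 11036 units on olfactory bulb arrays, and from 1650 to 5364 units on arrays of the other regions. Against striatum, cortex and cerebellum in turn, olfactory bulb was higher for 4 of the 5 genes and lower for 1. Against the total brain reference it was higher for 3 and lower for 2. The cerebellar genes Lhx5 and Pax2 averaged log2 ratios of 2.52 and 3.17 in cerebellum, and at most 0.20 in each other region. Of the 8 genes measured from their list, striatum was lower than cerebellum for 6 and higher for 2. The summed signal of that list was 16608 to 18616 units in cerebellum and 14846 to 16962 in cortex, so these overlapped. Of 3 genes of GABAergic neurons, Gad1, which encodes GAD67, Gad2 and Slc32a1 were all called above the total brain reference in each region, and none was called between striatum and the mean of the other regions. Against cerebellum alone, striatum was higher for Gad2 (0.88 ± 0.11) and lower for Slc32a1 (-0.87 ± 0.12). Whole-brain cells went against their label in part: Gad1 averaged -1.51 ± 0.10 and Gad2 -0.28 ± 0.08 there (SD, n = 4), both called below the reference, and Slc32a1 1.21 ± 0.18.

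Against the mean of the other regions, striatal cells had more signal for Foxp1, Bcl11b, Isl1, Foxp2 and Pde10a and less for Ppp1r1b. The lead probes of Ebf1, Drd2 and Adora2a had no called difference. Taken singly, Foxp2 was not called against olfactory bulb or cortex, nor Pde10a against cortex. Calls against the other regions below refer to their mean. In the contrast of striatum with the mean of olfactory bulb, cortex and cerebellum, 5 of 9 genes were thus called higher and 1 lower at a limma adjusted p under 0.05. Of all 39196 probes tested, 28.3% were called in this contrast, 14.1% higher and 14.2% lower. The median log2 difference was 0.62 over the 9 lead probes and -0.02 over all probes. Every striatum array lay above every array of the other regions for 4 of the 9 genes, Foxp1, Bcl11b, Isl1 and Pde10a, an arrangement found for 6.81% of all probes, and below every one for Ppp1r1b, as for 7.25% of all probes. When arrays were centred on their median in place of loess, 5 genes were called higher and 0 lower. With a gene's probes averaged in place of the lead probe, 7 were higher and 1 lower, and in the scanner software's ratio 6 and 1.

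**Figure D1:**
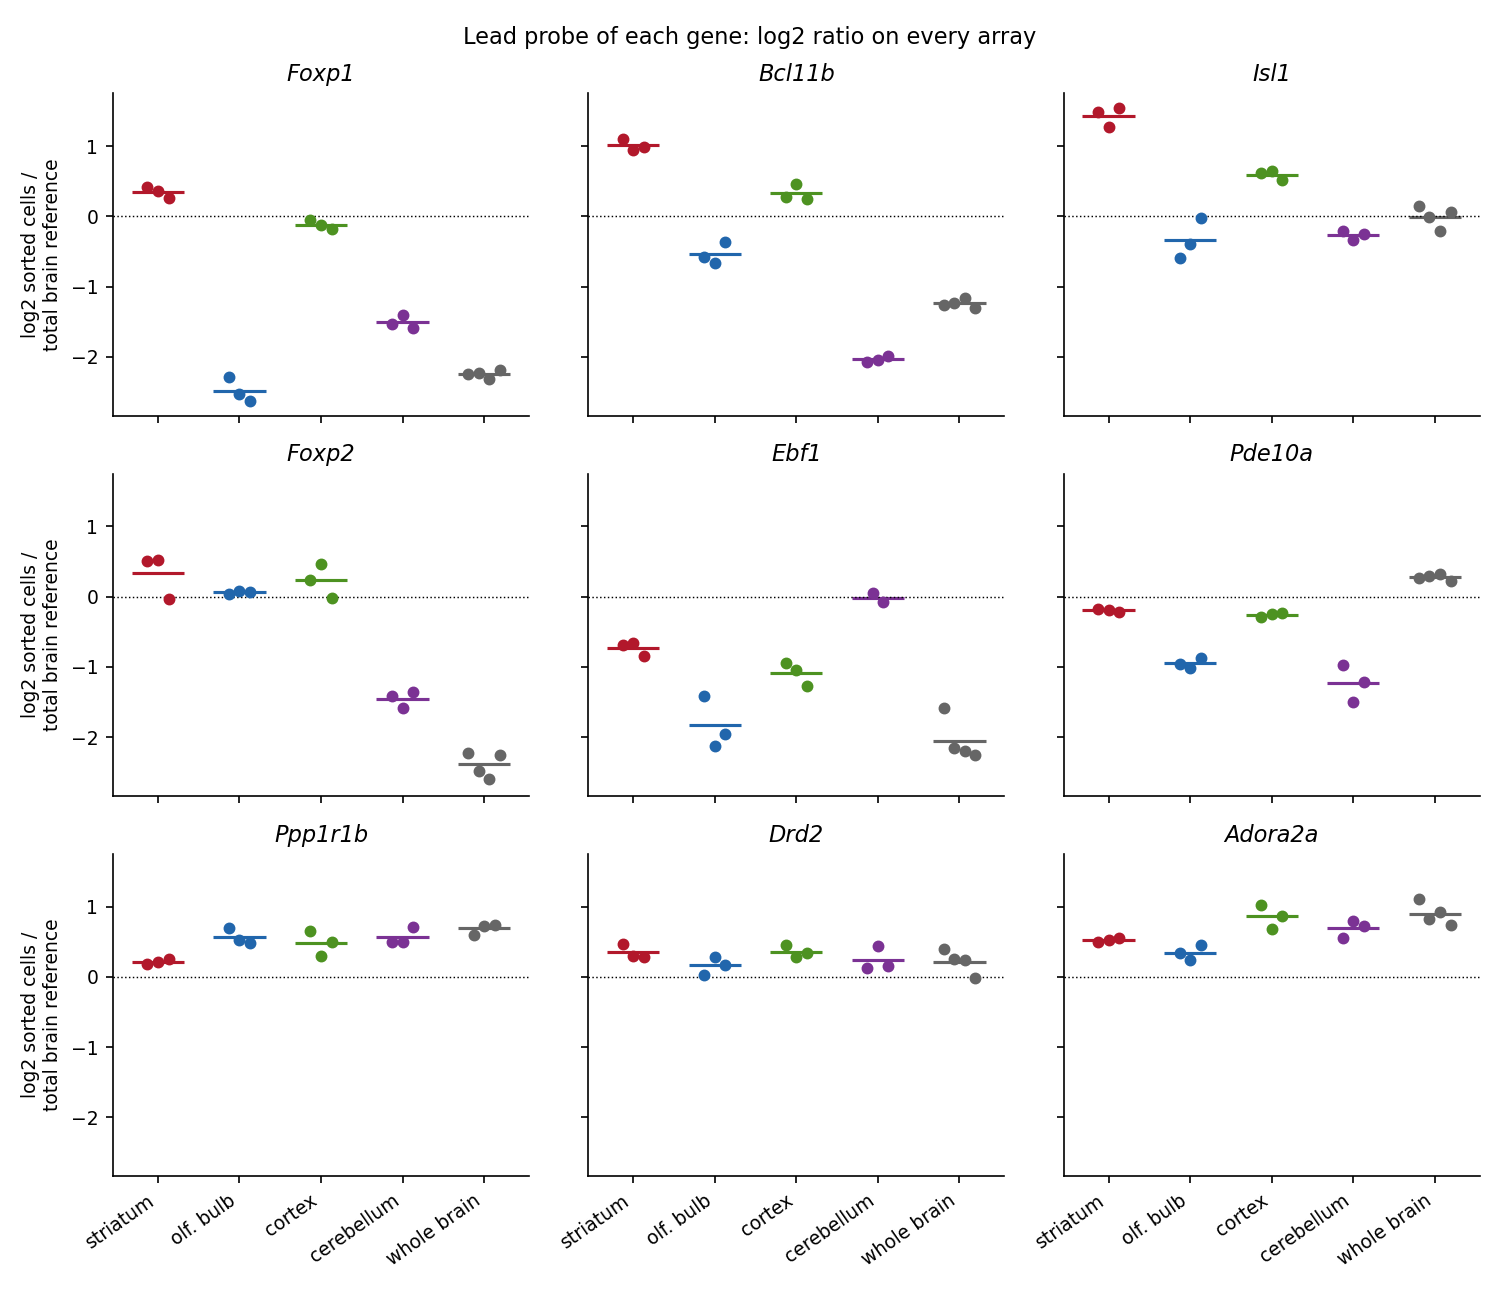
Log2 ratio of sorted cells over total brain reference (vertical axis, same scale in each panel) on every array for the lead probe of each gene, with 1 point an array and a bar at the group mean. Foxp1, Bcl11b and Isl1 stand highest in striatum with cortex next, Ebf1 is highest in cerebellum, and Ppp1r1b, Drd2 and Adora2a span a narrow range.

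Foxp1 encodes a forkhead repressor that marks developing and adult projection neurons. Its log2 ratio was 0.42, 0.36 and 0.26 on the striatum arrays, -2.29, -2.53 and -2.63 on the olfactory bulb arrays, -0.05, -0.12 and -0.18 on the cortex arrays, and -1.53, -1.41 and -1.59 on the cerebellum arrays. No regional groups overlapped: striatum was high, cortex close below it, and olfactory bulb lowest. The striatal excess over the other regions was 1.72 ± 0.08 (SE) on the log2 scale, or 3.29-fold (limma adjusted p = 4.82e-11). Taken singly, striatum exceeded olfactory bulb 7.11-fold, cerebellum 3.62-fold and cortex 1.38-fold, all called, the last at an adjusted p of 0.0027.

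Bcl11b encodes the zinc finger factor Ctip2, which projection neurons need for their differentiation. Its lead probe gave log2 ratios of 1.1, 0.95 and 0.98 in striatum, -0.58, -0.67 and -0.37 in olfactory bulb, 0.28, 0.46 and 0.24 in cortex, and -2.07, -2.04 and -1.99 in cerebellum. The order was striatum, cortex, olfactory bulb and cerebellum, and again no neighbours overlapped. Striatum stood 1.76 ± 0.08 above the other regions on the log2 scale, or 3.38-fold (adjusted p = 4.82e-11). Against cerebellum the excess was 8.23-fold and against cortex 1.60-fold (adjusted p = 9.73e-05). The other Bcl11b probe, which the array lists under an older clone name, gave the same order, an excess of 1.51 ± 0.09, and a Pearson correlation of 0.98 with the lead probe over 12 regional arrays.

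Isl1 encodes a LIM homeodomain factor of the direct pathway lineage that striatal cholinergic neurons also use. Its log2 ratio was 1.48, 1.27 and 1.54 in striatum, -0.59, -0.4 and -0.02 in olfactory bulb, 0.61, 0.64 and 0.52 in cortex, and -0.21, -0.34 and -0.25 in cerebellum. Striatum lay above cortex and cortex above both other regions, while olfactory bulb and cerebellum overlapped and gave no call (difference -0.07 ± 0.12, adjusted p = 0.689). The striatal excess was 1.43 ± 0.10, or 2.70-fold (adjusted p = 1.67e-08). This probe was dim outside striatum, with background-subtracted sorted signals of 19.6 to 33.9 units on the olfactory bulb arrays, 1 of them not well above background. In the scanner software's own ratio, which adds no offset, the excess came to 2.51 on the log2 scale.

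Among the markers of cholinergic neurons, Lhx8 was higher in striatum than in the other regions (1.23 ± 0.10, adjusted p = 1.1e-07) and 5 of 6 were not called. Slc5a7, the choline transporter that defines these neurons, was not well above background on any striatum, olfactory bulb or cortex array. The summed sorted-channel signal of the 6 genes ran from 1426 to 1812 units in striatum, 821 to 1267 in olfactory bulb, 1518 to 1585 in cortex and 1626 to 1826 in cerebellum, so striatum overlapped cortex and cerebellum. In the contrast of striatum with the other regions, 14.1% of all probes were higher and 14.2% lower. Of 6 medial ganglionic eminence interneuron genes, 4 were higher in it, Nkx2-1, Lhx6, Sst and Npy, and Satb1 was lower. Their summed signal was 6153 to 7792 units in striatum, 2128 to 4031 in olfactory bulb, 3799 to 4317 in cortex and 4993 to 5938 in cerebellum. The part of either cell type in the striatal excess of the 9 genes was not tested.

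Foxp2 encodes a forkhead factor related to Foxp1. Its lead probe had log2 ratios of 0.51, 0.52 and -0.04 in striatum, 0.03, 0.08 and 0.07 in olfactory bulb, 0.24, 0.47 and -0.02 in cortex, and -1.42, -1.59 and -1.36 in cerebellum. The 3 forebrain regions overlapped and cerebellum lay below them all. The excess over the mean of the other regions, 0.72 ± 0.12 (adjusted p = 0.000212), came with a 3.45-fold excess over cerebellum, whereas striatum and olfactory bulb differed by 0.27 ± 0.14 (adjusted p = 0.183) and striatum and cortex by 0.10 ± 0.14 (adjusted p = 0.672). Without striatum replicate 3, the low one, the difference from olfactory bulb was 0.46 and passed the test. The other probe correlated with the lead probe at 0.98 and gave an excess of 0.61 ± 0.11.

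Ebf1 encodes a helix-loop-helix factor needed for the differentiation of direct pathway neurons. It was the only one of the 5 transcription factor genes below the total brain reference on every striatum array, at log2 ratios of -0.69, -0.66 and -0.85. Olfactory bulb arrays read -1.42, -2.13 and -1.95, cortex arrays -0.95, -1.05 and -1.27, and 2 cerebellum arrays 0.05 and -0.08, the spot of replicate 1 being marked by the scanner software and left out. Cerebellum was therefore highest and olfactory bulb lowest, with no overlap among regions. Striatum exceeded olfactory bulb 2.14-fold (adjusted p = 0.000145) and lay 0.72 ± 0.19 below cerebellum (adjusted p = 0.0065), a call that rested on leaving out the marked spot (adjusted p = 0.0805 with it). Against the mean of the other regions the difference was 0.25 ± 0.14 (adjusted p = 0.219), and 0.63 in the scanner software's ratio (adjusted p = 0.0233).

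The promoters of the 3 genes with the strongest striatal excess are shown because these genes shared an order in which striatum came first and cortex second. The lead Foxp2 probe, Pde10a and the other Adora2a probe also had striatum first and cortex second. RefSeq windows of 300 bases around the start of transcription (GRCm38.p6) were found for 6 of the 9 genes, and none for Foxp2, Ppp1r1b and Adora2a. For Foxp1 the most upstream of 3 starts is given, and capitals mark CG dinucleotides.
Foxp1 (chr6:99520944-99521243, minus strand): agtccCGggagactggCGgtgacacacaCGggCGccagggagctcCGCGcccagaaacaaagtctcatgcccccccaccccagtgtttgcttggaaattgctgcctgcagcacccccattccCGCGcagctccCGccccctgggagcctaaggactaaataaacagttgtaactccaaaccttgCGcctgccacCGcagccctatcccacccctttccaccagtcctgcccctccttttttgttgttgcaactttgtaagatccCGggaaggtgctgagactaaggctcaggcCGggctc
Bcl11b (chr12:108003365-108003664, minus strand): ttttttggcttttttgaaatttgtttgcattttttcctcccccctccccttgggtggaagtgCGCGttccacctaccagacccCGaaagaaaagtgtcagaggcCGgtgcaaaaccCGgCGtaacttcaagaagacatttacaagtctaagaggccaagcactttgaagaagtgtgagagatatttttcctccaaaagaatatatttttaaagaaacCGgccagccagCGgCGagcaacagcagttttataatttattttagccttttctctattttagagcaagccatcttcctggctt
Isl1 (chr13:116309639-116309938, minus strand): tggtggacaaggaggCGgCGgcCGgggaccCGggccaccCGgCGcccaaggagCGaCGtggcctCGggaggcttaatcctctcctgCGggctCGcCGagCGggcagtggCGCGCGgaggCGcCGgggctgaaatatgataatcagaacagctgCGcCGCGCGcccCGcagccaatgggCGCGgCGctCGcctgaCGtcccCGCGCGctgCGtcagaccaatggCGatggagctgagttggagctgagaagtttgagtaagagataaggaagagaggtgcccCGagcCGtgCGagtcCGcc
The Isl1 window held 37 CG dinucleotides, a number that 5.58% of the 32851 mouse promoters reached, the Foxp1 window 13 and the Bcl11b window 9, against a median of 7. Motifs were searched on both strands with none contained in another. The forkhead letters TGTTTAC were in none of the 10 windows of the 9 genes and in 3.65% of all promoters. The homeodomain letters TAATTA were in 1 of the 10, a Foxp1 window not shown, and in 5.29% of all promoters. TATAAA was in 1 of the 10, that of Bcl11b, and in 13.6% of all promoters. The GC box letters GGGCGG were in 5 of the 10, including the Foxp1 window shown, and in 35.7% of all promoters. GC content in the windows shown was 60.3% for Foxp1, 43% for Bcl11b and 69% for Isl1, so the 3 windows differed in base composition.

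Pde10a encodes the phosphodiesterase that degrades cyclic nucleotides in projection neurons. Its log2 ratio was -0.17, -0.19 and -0.22 in striatum, -0.96, -1.01 and -0.88 in olfactory bulb, -0.29, -0.25 and -0.23 in cortex, and -0.98, -1.5 and -1.21 in cerebellum. All regional groups stood below total brain, with striatum and cortex close together and both above olfactory bulb and cerebellum. For striatum, the call against total brain was lost in 5 of 29 other settings and turned in 1, to 0.14 with median centring. The striatal excess over the other regions was 0.62 ± 0.08, or 1.53-fold (adjusted p = 2.88e-05). Between striatum and cortex the difference was 0.06 ± 0.10 (adjusted p = 0.71), with a 95% interval from -0.15 to 0.27. Split by channel, the sorted-cell signal was 0.43 higher and the reference signal differed by -0.19.

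Ppp1r1b encodes DARPP-32, the dopamine-regulated phosphatase inhibitor of mature projection neurons. Its log2 ratios were 0.19, 0.21 and 0.25 in striatum, 0.7, 0.53 and 0.48 in olfactory bulb, 0.66, 0.3 and 0.5 in cortex, and 0.49, 0.5 and 0.71 in cerebellum. Every striatum array lay below every array of the other regions, and the other 3 regions overlapped. The difference of -0.32 ± 0.08 (adjusted p = 0.00731) was the only called deficit in striatum among the 9 lead probes. Its sorted-channel part was -0.05 and its reference-channel part 0.27. The call was lost with the sorted channel alone (adjusted p = 0.798), with median centring (-0.01, adjusted p = 0.964) and with marked spots kept (adjusted p = 0.0722).

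**Figure D2:**
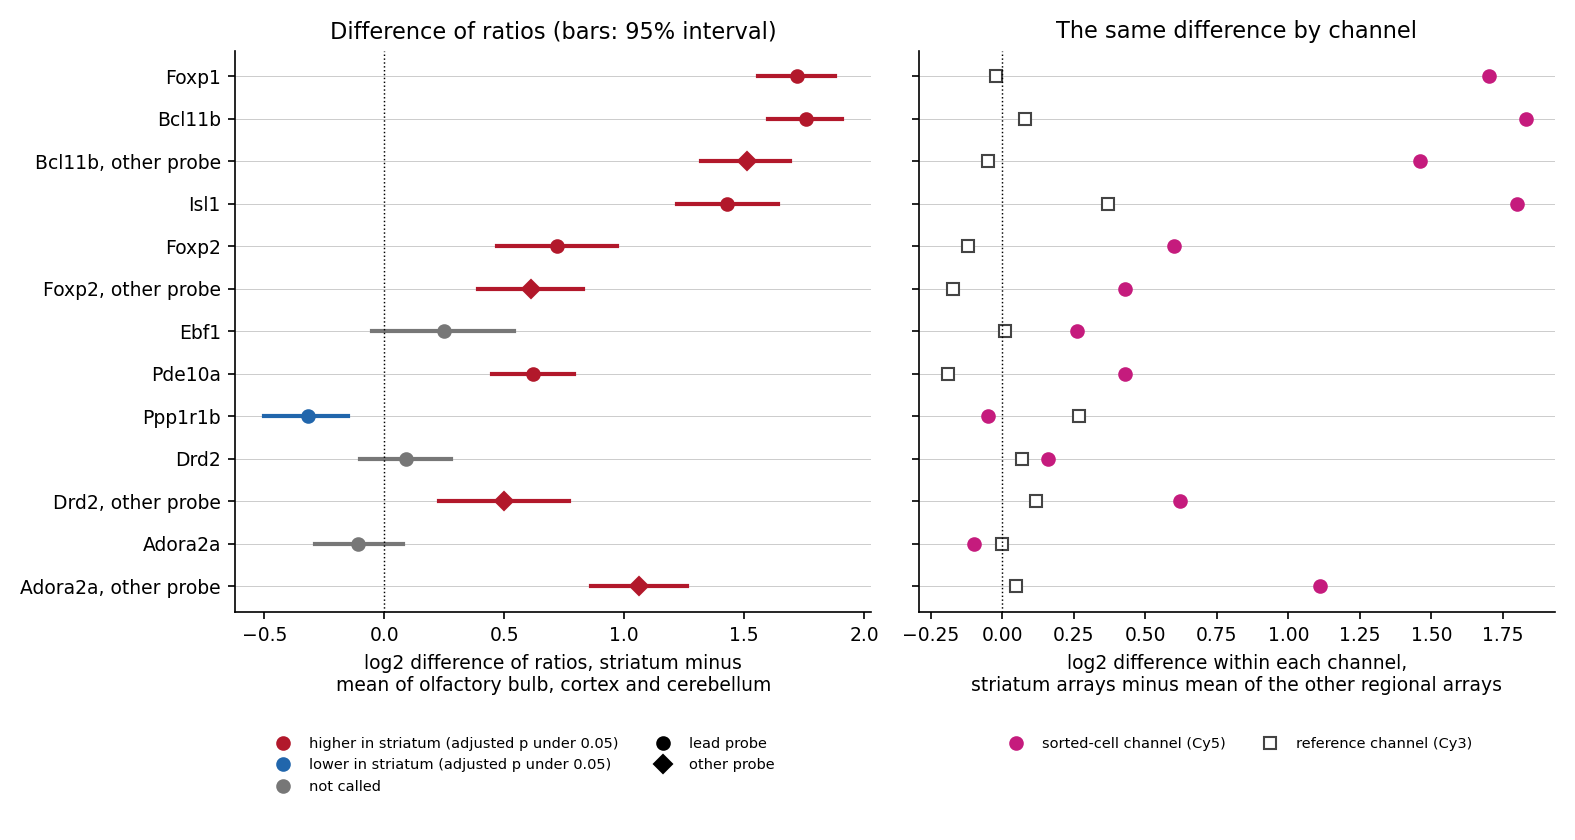
Left, log2 difference of striatum minus the mean of olfactory bulb, cortex and cerebellum for the 13 probes tested, with 95% intervals, lead probes as circles and other probes as diamonds. Right, the parts of the same difference in the sorted-cell and reference channels: the excess of Foxp1, Bcl11b and Isl1 lies in the sorted channel (1.70, 1.83 and 1.80), and the Ppp1r1b deficit in the reference channel (0.27).

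The receptor genes of the indirect pathway gave different answers by probe. Drd2 encodes the dopamine D2 receptor, and its lead probe read 0.47, 0.3 and 0.28 in striatum, 0.03, 0.29 and 0.17 in olfactory bulb, 0.45, 0.29 and 0.34 in cortex, and 0.13, 0.44 and 0.16 in cerebellum. All 4 regions overlapped, and the F test among regions did not call it (adjusted p = 0.342). The other, dimmer Drd2 probe read 0.38, 0.46 and 0.42 in striatum, -0.25, -0.48 and -0.19 in olfactory bulb, 0.55, 0.74 and 0.48 in cortex, and -0.29, -1.05 and -0.23 in cerebellum. By that probe cortex was highest and striatum next, a difference that was not called (-0.17 ± 0.16, adjusted p = 0.496), and both lay above olfactory bulb and cerebellum. Its striatal excess was 0.50 ± 0.13 (adjusted p = 0.00736), against 0.09 ± 0.09 (adjusted p = 0.501) for the lead probe. In the scanner software's ratio the excess of the dimmer probe was 1.06.

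Adora2a encodes the adenosine A2a receptor. The lead probe read 0.49, 0.52 and 0.56 in striatum, 0.34, 0.24 and 0.45 in olfactory bulb, 1.03, 0.68 and 0.87 in cortex, and 0.56, 0.79 and 0.73 in cerebellum, which put striatum below every cortex array. The other probe read 0.76, 0.58 and 0.6 in striatum, -0.76, -0.95 and -0.66 in olfactory bulb, -0.04, 0.1 and 0.24 in cortex, and -0.52, -0.53 and -0.62 in cerebellum, which put striatum above every array of the other regions. The striatal difference was thus 1.06 ± 0.10 by the other probe (2.09-fold, adjusted p = 3.41e-07) and -0.11 ± 0.09 by the lead probe (adjusted p = 0.408). With the pair averaged it was 0.48 (adjusted p = 6.46e-05). The other probe was called higher in striatum than in cortex (0.55 ± 0.12, adjusted p = 0.00386). Against cortex alone the lead probe was called lower in striatum (-0.33 ± 0.11, adjusted p = 0.0392), a call lost without any one of the striatum arrays, the difference then running from -0.35 to -0.32, and without cortex replicate 1 (-0.25) or 3 (-0.33).

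The probes of a pair correlated over the 12 regional arrays at 0.98 for Foxp2, 0.98 for Bcl11b, 0.24 for Drd2 and 0.27 for Adora2a, where all points share the reference and the array. The scanner files used here give no probe sequences, and the transcripts that each probe detects were not compared.

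**Figure D3:**
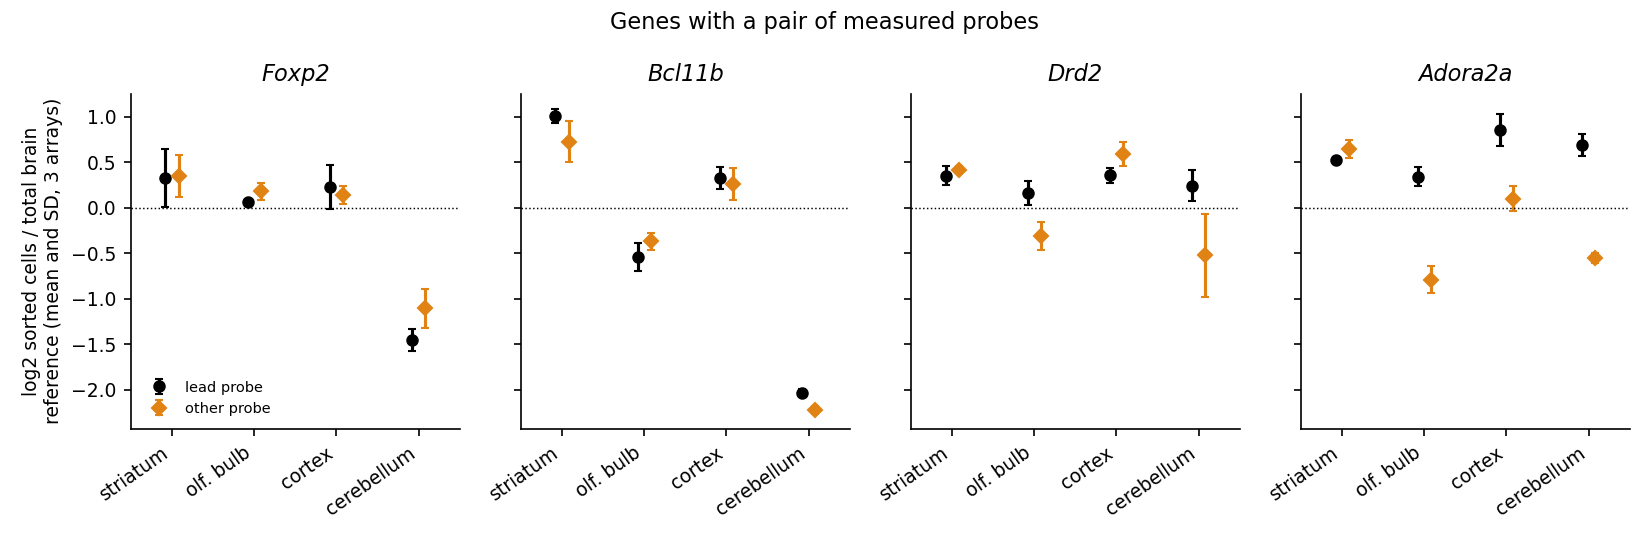
Mean and SD of the log2 ratio over 3 arrays in each region (horizontal axis) for the lead probe (circles) and the other probe (diamonds) of 4 genes. The probes of Foxp2 and of Bcl11b follow each other, whereas the other probes of Drd2 and Adora2a fall below 0 in olfactory bulb and cerebellum and the lead probes do not.

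Each pair of regions was also compared directly, in fits that share the same arrays. Striatum against olfactory bulb gave 5 genes higher (Foxp1, Bcl11b, Isl1, Ebf1, Pde10a) and 1 lower (Ppp1r1b), where 26% of all probes were called (12.8% higher, 13.2% lower), and 5 higher and 0 lower with median centring. Striatum against cortex gave 3 higher (Foxp1, Bcl11b, Isl1) and 1 lower (Adora2a, by its lead probe), where 17.5% of all probes were called (9.86% higher, 7.6% lower). That lower call was absent with median centring (3 higher, 0 lower), and the other Adora2a probe was called higher in striatum (0.55 ± 0.12, adjusted p = 0.00386). Striatum against cerebellum gave 5 higher (Foxp1, Foxp2, Bcl11b, Isl1, Pde10a) and 2 lower (Ebf1, Ppp1r1b), where 37.2% of all probes were called (17.7% higher, 19.5% lower), or 5 higher and 1 lower after median centring or scaling between arrays. The Ppp1r1b call was lost without olfactory bulb replicate 1 in the first of these comparisons (-0.29) and without cerebellum replicate 3 in the last (-0.28). Its direction turned with the sorted channel alone against olfactory bulb (0.17) and with median centring against cerebellum (0.13). With a gene's probes averaged, striatum had 7 genes higher and 1 lower against olfactory bulb, 3 and 0 against cortex, and 7 and 2 against cerebellum. Cortex was thus the region with the fewest calls against striatum, for all probes as for the 9 genes.

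Olfactory bulb cells had less signal than cortical cells for 6 of the 9 genes, Foxp1, Bcl11b, Isl1, Ebf1, Pde10a and Adora2a, and more for 0, where 15.7% of all probes were called, 8.3% higher and 7.36% lower. With median centring Adora2a was not called (-0.30, adjusted p = 0.145, against -0.52 with loess), which left 5 lower, and with probes averaged 7 were lower. The Foxp1 difference was the largest of these at -2.37 ± 0.09, a 5.15-fold deficit in olfactory bulb (adjusted p = 1.65e-11). Between olfactory bulb and cerebellum 3 genes were higher and 3 lower, where 39.9% of all probes were called (19.2% higher, 20.7% lower): Foxp2 and Bcl11b were 2.86-fold and 2.82-fold higher in olfactory bulb, and Ebf1 was 3.53-fold lower. Scaling between arrays gave 2 higher and 2 lower. The Pde10a call (0.28 ± 0.10) was lost in 6 of 30 other settings, among them those without olfactory bulb replicate 1 (0.29) or 3 (0.25) and without cerebellum replicate 2 (0.15) or 3 (0.29). That for the lead Adora2a probe (-0.35 ± 0.11) was lost without olfactory bulb replicate 2 or cerebellum replicate 2 (-0.30 each) and turned to 0.01 with median centring. Cortex exceeded cerebellum for 5 genes and lay below it for Ebf1 (-1.08 ± 0.19), where 26.5% of all probes were called (12.4% higher, 14.1% lower). Bcl11b differed most in that pair, at 5.14-fold. Across all regions the F test called 8 of 9 genes, where 55.9% of probes were called, and 6 genes also had a range of region means of at least 2-fold, where 3.82% of probes did.

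Against the total brain reference, striatal cells had more signal for 7 genes and less for Ebf1 and Pde10a, where 67.4% of all probes were called (34.1% higher, 33.3% lower), or 7 and 1 with median centring. The largest striatal ratios were those of Isl1, at 1.43 ± 0.14 (SD, n = 3), and Bcl11b, at 1.01 ± 0.08 (SD, n = 3), or 2.69 and 2.01 times the reference. Pde10a stood at -0.19 ± 0.02 (SD, n = 3), a call lost without any one of the striatum arrays and in the scanner software's ratio (-0.16, adjusted p = 0.0755), and its direction turned with median centring (0.14, adjusted p = 0.222). The call for Foxp2, at 0.33 ± 0.32 (SD, n = 3), was lost without replicate 1 (0.24) or 2 (0.23), and the value was 0.52 without replicate 3. That for Ppp1r1b, at 0.22 ± 0.03 (SD, n = 3), was lost without replicate 3 (0.20) and with marked spots kept (adjusted p = 0.0953). Cortical cells had 5 genes above and 2 below the reference, where 68.3% of all probes were called, 34.7% higher and 33.6% lower (6 and 1 genes with median centring). Cerebellar cells had 3 above and 5 below, where 75.2% of all probes were called (38.8% higher, 36.4% lower), or 1 above and 5 below with a gene's probes averaged. The other probes of Adora2a and Drd2 lay below the reference there (-0.56 and -0.53, adjusted p = 4.83e-06 and 0.000305), and the lead probes above it. Olfactory bulb cells had 2 above and 5 below, where 67.3% were called, 34.6% higher and 32.8% lower (4 and 5 genes with median centring, 1 and 6 with probes averaged). Adora2a was above there by its lead probe, and its other probe lay below (-0.79, adjusted p = 4.54e-08). Whole-brain cells had 4 above and 4 below, where 79.3% were called, 41.2% higher and 38.1% lower (3 and 4 genes with probes averaged). Of the 4 above, Drd2 and Adora2a had other probes below the reference (-0.26 and -0.29, adjusted p = 0.0189 and 0.000918).

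Whole-brain GABAergic cells were set against the mean of the 4 regions, with the scan batch as stated above. The lower Gad1 (-2.34 ± 0.09) and Gad2 (-1.87 ± 0.08) were called in this contrast, and Slc32a1 was higher (0.39 ± 0.09). The summed sorted-channel signal of the 3 genes was 6443 to 8862 units in whole brain and 9595 to 15949 units in the regions. Of 6 microglial genes, 5 were higher in whole brain and 1 lower, and 3 of 4 oligodendrocyte lineage genes were higher, with sums of 2841 to 3193 and 1473 to 1728 units. Astrocyte markers were split: of 5 measured, 3 had less signal in whole-brain cells and 2 had more, all called. Their median log2 difference was -0.37. The part of the cells sorted in the whole-brain values was not tested. By their lead probes, whole-brain cells had more signal for Pde10a, Ppp1r1b and Adora2a and less for Foxp1, Foxp2, Bcl11b, Isl1 and Ebf1, 3 higher and 5 lower, where 62.7% of all probes were called, 29.9% higher and 32.9% lower (1 and 5 genes after scaling between arrays). Foxp2 was lowest of all groups there, at -2.22, -2.48, -2.59 and -2.25 on the 4 arrays, a difference of -2.18 ± 0.10 from the regional mean on the log2 scale. Foxp1 read -2.24, -2.23, -2.32 and -2.19 and overlapped olfactory bulb. The Bcl11b probes, alike in the regions, stood apart here, the lead probe at -1.26, -1.23, -1.16 and -1.31 and the other at -2.46, -2.54, -2.59 and -2.64. Isl1, at 0.15, -0.01, -0.21 and 0.06, lay near the reference, and its call against the regional mean (-0.36 ± 0.09) was lost in the scanner software's ratio (-0.20, adjusted p = 0.372). Pde10a read 0.27, 0.3, 0.32 and 0.22, above every regional array, and the difference was 0.94 ± 0.07 (adjusted p = 4.92e-10). Among the receptors, the lead Adora2a probe read 1.11, 0.82, 0.92 and 0.74 and overlapped cortex. The other Adora2a probe was not called (-0.14 ± 0.08, adjusted p = 0.141), was called lower with the replicate number as a block (-0.25, adjusted p = 0.0106), and the pair averaged gave 0.07 (adjusted p = 0.263). The lead Drd2 probe, at 0.4, 0.25, 0.24 and -0.02, was not called (-0.06 ± 0.08, adjusted p = 0.517), while the other Drd2 probe was lower in whole brain (-0.31 ± 0.11, adjusted p = 0.0231), as was the pair averaged (-0.18, adjusted p = 0.021). The Ppp1r1b difference of 0.23 ± 0.08, over 3 whole-brain arrays since the spot on the fourth was marked, had a sorted-channel part of 0.01 and came to 0.04 with the marked spot kept. The call was also lost without whole brain replicate 2 or 3 (0.21 each).

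Other genes of the pathway were taken from 4 lists. Of 18 other genes shared by both projection neuron types, 7 were higher in striatum than in the other regions, 3 lower and 8 not called. Of all probes, 14.1% were higher and 14.2% lower in this contrast. The median log2 difference of the 18 genes was 0.06. Among the 7 were Zfp503 (0.76 ± 0.12), a zinc finger factor of striatal development, Bcl11a, a relative of Bcl11b, the homeobox gene Six3, the retinoid receptor genes Rxrg and Rarb, and the G protein gene Gng7. Arpp21, Ikzf2 and Pde1b were lower. Against cortex alone, 0 of these 18 were higher and 1, Ikzf2, was lower, where 9.86% of all probes were higher and 7.6% lower. Against the total brain reference, 9 of the 18 were called lower in striatal cells and 5 higher, where 33.3% of all probes were lower and 34.1% higher. The 9 were Adcy5 (-1.54), Cnr1 (-1.23), Gng7 (-1.17), Pde1b (-1.09), Gnal (-1.04), Rasd2 (-1.03), Rgs9 (-0.76), Ptpn5 (-0.68) and Arpp21 (-0.42), and the 5 were Ikzf2 (1.55), Six3 (1.02), Meis2 (0.90), Zfp503 (0.63) and Rxrg (0.21), all group means of log2 ratios.

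None of the 7 other direct pathway genes was called between striatum and the mean of the other regions, where 28.3% of all probes were called. Drd1, the dopamine D1 receptor gene, differed by -0.24 ± 0.11 (adjusted p = 0.117) and Tac1, which encodes substance P, by -0.20 ± 0.09 (adjusted p = 0.131). Of the other indirect pathway genes, 3 of 5 were measured. Penk, the enkephalin gene, was higher in striatum (0.88 ± 0.09, adjusted p = 1.6e-06) while at -1.21 against the reference, Grik3 was lower, and Gpr6 was not called. Among 7 lateral eminence progenitor and GABAergic fate genes, Dlx2 (1.18 ± 0.10), Gsx1, Dlx5 and Dlx1 were higher in striatum, as were 14.1% of all probes, and 3 were not called. Taken singly, striatum had 3 of the 7 higher and 2 lower against olfactory bulb, 2 and 1 against cortex, and 4 and 0 against cerebellum. Of all probes, 12.8% were higher and 13.2% lower against olfactory bulb, 9.86% and 7.6% against cortex, and 17.7% and 19.5% against cerebellum. Dlx1 was not called between striatum and cortex (-0.14 ± 0.10, adjusted p = 0.356), and its cerebellar mean of 0.63 stood below those of the 3 forebrain regions.

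**Figure D4:**
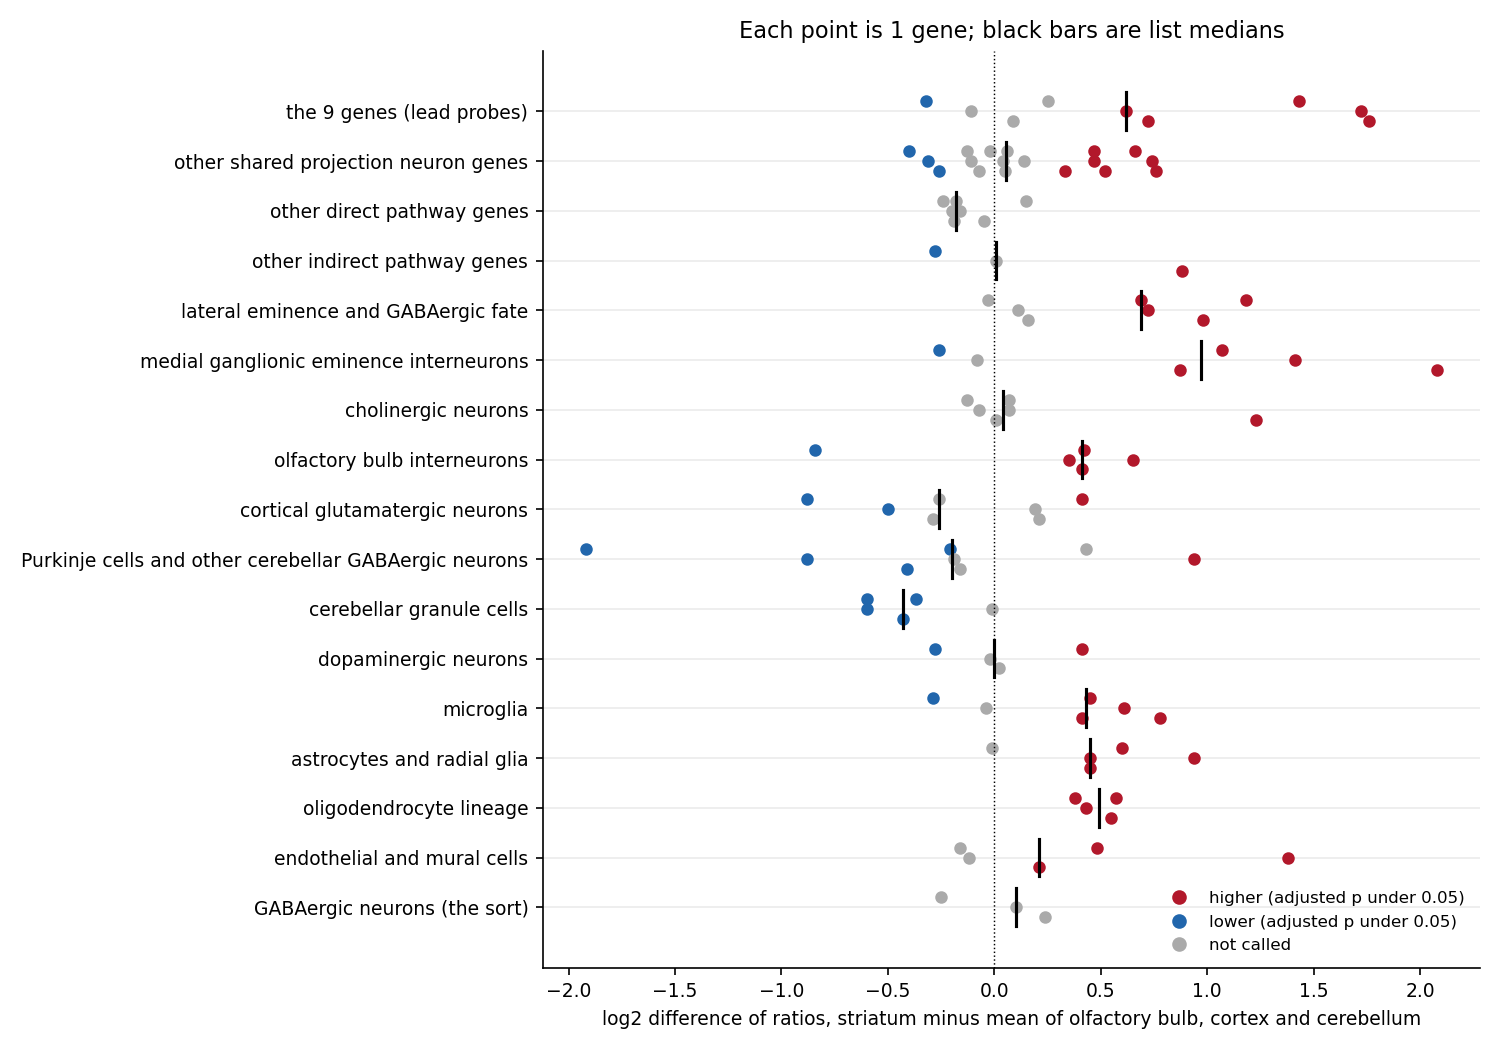
Log2 difference of striatum minus the mean of olfactory bulb, cortex and cerebellum (horizontal axis) for the 9 genes, 4 lists of related genes and the marker lists, with 1 point a gene, colour for the call and a black bar at the list median. The 9 genes have a median of 0.62 and the 7 other direct pathway genes one of -0.18, and lists of glial and vascular markers lie mostly to the right of 0.

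Markers of other cells moved with the striatal contrast too. Higher in striatum than in the other regions were 4 of 4 oligodendrocyte lineage genes, 4 of 5 of astrocytes and radial glia, 4 of 6 of microglia (with 1 lower) and 3 of 5 of endothelial and mural cells. List medians ran from 0.21 to 0.49, and 14.1% of all probes were higher and 14.2% lower. Against the total brain reference, striatal cells were lower for 4 genes of each list in this order, and higher for 0, 1, 1 and 0. Against cerebellum alone, 1, 1, 0 and 2 genes were higher in striatum and 1, 0, 1 and 0 lower. Summed sorted-channel signals of the 5 vascular genes were 2159 to 3253 units in striatum, 1190 to 1206 in olfactory bulb, 1268 to 1475 in cortex and 1620 to 1670 in cerebellum. For oligodendrocyte genes they were 1217 to 1326, 714 to 854, 726 to 830 and 1093 to 1261 units in the same order, so striatum and cerebellum overlapped. Microglial sums were 2460 to 2595 units in striatum, 1512 to 1982 in olfactory bulb, 2088 to 2200 in cortex and 2448 to 2744 in cerebellum, and astrocyte sums 6549 to 7405 units in striatum, 5985 to 6148 in olfactory bulb, 3198 to 4022 in cortex and 6391 to 6914 in cerebellum. Kdr, an endothelial receptor gene, was not well above background on any olfactory bulb or cortex array. Of the neuronal lists, 4 of 5 olfactory bulb interneuron genes were higher and 1 lower, 1 of 7 cortical glutamatergic genes higher and 2 lower, 1 of 8 Purkinje and cerebellar GABAergic genes higher and 4 lower, 0 of 5 granule cell genes higher and 4 lower, and 1 of 4 dopaminergic genes higher and 1 lower. The part of these cells in the results for the 9 genes was not tested.

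For the 6 genes with a 2-fold range of region means, the 3 genes of most similar pattern were taken by Pearson correlation of log2 ratios over the 12 regional arrays, among 785 candidates that share the reference and the arrays. Foxp1 was followed by Scube1 (0.985), Thbs3 (0.981), which encodes a thrombospondin, and Enc1 (0.981). Bcl11b was followed by the semaphorin receptor gene Plxna2 (0.993), Rnaseh2b (0.99) and Kif26a (0.981). Isl1 came with Nkx2-1 (0.963), the medial ganglionic eminence factor, Tspan9 (0.961) and Carhsp1 (0.955). Foxp2 came with 5031425E22Rik (0.988), the potassium channel subunit gene Kcnab3 (0.984) and Islr2 (0.979), all lowest in cerebellum. For Ebf1, over 11 arrays, they included the adhesion gene Lsamp (0.985) and Ptprd (0.969), and for Pde10a they were Ets1 (0.962), the retinoic acid receptor gene Rara (0.961) and Ccdc42os (0.961). Among the 9 genes themselves, the highest correlations were those of Bcl11b and Pde10a (0.92), Foxp2 and Bcl11b (0.91) and Foxp1 and Isl1 (0.90). Isl1 and Ppp1r1b had the lowest, at -0.80. All other pairs lay between, such as Foxp1 and Foxp2 at 0.40, Bcl11b and Adora2a at -0.03 and Foxp2 and Ebf1 at -0.57. The 12 arrays were 3 from each region, so these values largely reflect the order of regions.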

How the data were processed

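GABAergic cells sorted from 4 brain regions and whole brain were measured on 16 two-colour Agilent arrays. The scanner files give, for each spot and channel, a mean intensity and a median background intensity, as deposited. They were made with Agilent Feature Extraction 8.1.1.1 per the submitters' processing notes, and the deposited log10 ratio is that software's own. Values in the series' table are that log10 ratio, differing by at most 0.005, in the same direction and with no further centring, and their column medians ran from 0 to 0.0319. Marks for outlier, saturated and above-background spots are the scanner software's yes or no flags, as deposited. The labels call the Cy3 reference red, and the direction of ratios rests on the dye names. Dyes were not swapped.

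Log2 ratios were computed from the deposited intensities with limma 3.58.1 (R 4.3.3, data.table version 1.17.8): normexp background correction with offset 50, which shrinks ratios of dim spots, then loess within arrays, with marked spots left out and spots of a probe averaged. A probe was kept where 3 or more arrays showed it well above background for sorted cells, or 8 or more for the reference. Probes with too few unmarked values, over all arrays or within a group, were also left out, and 39196 remained. All 16 arrays were fitted with 5 group means (lmFit, eBayes), with Benjamini-Hochberg adjustment over all probes and a threshold of 0.05. SE values are limma's. For a difference by channel, channel signals were quantile-normalized on their average intensity (Aquantile). Genes in the lists have their brightest probe. One synonym of Bcl11b is also another gene's symbol, and its 2 probes were left out. The 3 similar genes per member were those of highest correlation with a 2-fold range and a gene symbol. The fit was tested on simulated data. Some items are not reported here. Members and lists were chosen with earlier results of these data known. For arrays of different groups with the same replicate number, correlations of deviations from group means ran from -0.125 to 0.246, and 10 of 30 pairs were over 0.1. With different numbers they ran from -0.366 to 0.259. Such correlations cannot tell whether samples share animals. Alternatives were other background corrections, normalizations, filters and probe choices, the regional arrays alone, the replicate block and leaving out arrays. Figures were drawn with matplotlib 3.10.9. The number of arrays limits the precision.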

Additional observations from a re-analysis of the deposited data

Results flagged for a closer look

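Among 12 probes with values on all 4 whole-brain arrays, 1 array stood apart from the other 3: whole brain replicate 1 for Ebf1, at a log2 ratio of -1.59 against -2.16, -2.2 and -2.26. Chance alone sets about 1 in 20 such groups apart.

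The effect of sorted cells over reference differed among regions, by the F test, for 12 of 13 probes, where 55.9% of all probes passed the same test. The range of region means on the log2 scale was 3.04 and 2.95 for the Bcl11b probes, 2.83 for Foxp1, 1.82 for Ebf1, 1.79 and 1.45 for the Foxp2 probes, 1.77 for Isl1, 1.44 and 0.52 for the Adora2a probes, 1.12 for the other Drd2 probe, 1.04 for Pde10a and 0.35 for Ppp1r1b.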

How the results depend on the processing

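Each of the 14 counts of called genes, higher and lower added together, stayed within 1.5 times its main value under all settings that gave it, 413 recomputed counts in all. Counts in 1 direction moved more: genes called higher were 1 in place of 3 in cerebellum against reference with probes averaged, 4 in place of 2 in olfactory bulb against reference with median centring, and 1 in place of 3 in whole brain minus regions with scaling between arrays. Also, without single arrays the count for striatum against the other regions was 6 each time. Of 4875 recomputed values of single probes, 4741 kept direction and side of the threshold, 72 lost their call, 49 gained one and 13 turned. Median centring turned Ppp1r1b in striatum minus cerebellum (0.13), the lead Adora2a probe in olfactory bulb minus cerebellum (0.01), and, against the reference, Pde10a in striatum (0.14), the other Bcl11b probe in olfactory bulb (0.05) and the other Adora2a probe in whole brain (0.24). Averaging a gene's probes turned Adora2a in striatum minus the other regions (0.48), minus cortex (0.11) and minus cerebellum (0.52) and in olfactory bulb against the reference (-0.23), and Drd2 in cerebellum (-0.14) and whole brain (-0.02) against the reference. The sorted channel alone turned Ppp1r1b in striatum minus olfactory bulb (0.17) and the lead Drd2 probe in whole brain minus regions (0.27). These causes were not tested. Leaving out single arrays turned no value, and 34 lost their call. With the replicate block, 6 genes were called between striatum and the other regions, as without it; the block took 1 call of 169 probe values and added 2. Slide or scan as a block was not run, since each slide held 1 array and no scan batch held both whole brain and regions. Keeping marked spots and a smaller normexp offset were alternatives chosen after seeing the data. Signal near background limits Isl1, Ebf1 and the other Drd2 probe, whose differences were mostly larger in the scanner software's ratio. For Ebf1 the log2 difference of olfactory bulb from cerebellum was -3.01 in that ratio, against -1.82.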

Other observations

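Beside the named Foxp1 probe, the array holds 2 probes for cDNAs that its descriptions call forkhead box P1 but that carry no gene name. They were chosen after their values were seen. The first, for AK033622, had mean log2 ratios of 0.49 ± 0.04 in striatum, -1.39 ± 0.20 in olfactory bulb, 0.14 ± 0.16 in cortex, -0.93 ± 0.02 in cerebellum (SD, n = 3 each) and -1.39 ± 0.10 in whole brain (SD, n = 4). Its striatal excess over the other regions was 1.22 ± 0.08 (SE, limma adjusted p = 1.45e-08), in the order of regions that the named probe gave. The second, for AK031837, averaged 0.26 ± 0.08 in striatum, -0.10 ± 0.10 in olfactory bulb, 0.44 ± 0.15 in cortex and -0.08 ± 0.17 in cerebellum (SD, n = 3 each), and its striatal difference of 0.17 ± 0.09 was not called (limma adjusted p = 0.194). That probe was not well above background on any olfactory bulb array.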
